A study of Mus musculus with 6 samples.

Results

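The genes described here encode the machinery that sorts, bends, cuts and fuses endosomal membranes. They were the 93 rows, of 18507 in the deposited gene table, whose symbol starts with Vps, Snx, Chmp, Stx or Vamp followed by a digit, leaving out Stxbp genes and pseudogene symbols. The families held 33 Vps, 30 Snx, 10 Chmp, 14 Stx and 6 Vamp genes. The mice were C57BL/6, and RNA was sequenced from their interscapular brown adipose tissue, a fat depot that burns lipid to make heat. The 3 WT mice were wild-type controls and the 3 Beclin1_KO mice carried a Beclin1 deletion that the series title places in adipocytes. Animals of both genotypes were given tamoxifen (75 mg/kg, by mouth on 5 days in a row) to switch on Cre, although a separate treatment tag reads untreated for every sample. All mice ate chow at 22 °C. The sources used here name no promoter for Cre and give neither age, nor sex, nor the time from tamoxifen to collection. The tissue was sequenced whole, so cells outside the adipocyte lineage, in which the title does not place the deletion, were part of every sample.

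Endosomes receive proteins from the cell surface and from the Golgi and decide what is sent back and what is degraded in lysosomes. Retromer and sorting nexins, which bind endosomal phosphoinositides through PX domains, pull cargo into return tubules. The ESCRT machinery pinches ubiquitinated cargo into vesicles inside the endosome and also closes autophagosomes, and the HOPS and CORVET tethers with SNARE proteins (syntaxins and VAMPs) bring membranes together and fuse them. Beclin 1 is a subunit of the VPS34 lipid kinase complexes, whose product, phosphatidylinositol 3-phosphate, is bound by PX domains on endosomes. In fat cells the same fusion and sorting machinery moves the glucose transporter GLUT4 to and from the cell surface.

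The libraries held 44269031 to 50842488 counts in WT and 50536315 to 60983193 in Beclin1_KO. Values below are CPM, counts per 1e+06 counts of a library after TMM scaling, unless FPKM is named, and every difference is a log2 fold change of Beclin1_KO over WT from edgeR's quasi-likelihood test. Genes with a Benjamini-Hochberg adjusted p below 0.05 over all 15347 genes tested are said to have risen or fallen. Becn1, the targeted gene, was at 86.2 ± 3.20 CPM in WT and 51.5 ± 7.88 CPM in Beclin1_KO (SD, n = 3 each), a log2 fold change of -0.74 (SE 0.13, edgeR adjusted p = 0.00411). Scaled by library totals alone, the Becn1 difference was -0.39 (edgeR adjusted p = 0.0543). The summed level of 9 adipocyte markers was 27187 to 31768 CPM in WT and 7262 to 13168 CPM in Beclin1_KO, and 8 of them fell. The remaining marker, Lep, did not pass (log2 fold change 1.53, edgeR adjusted p = 0.230). It was at 3.87, 7.03 and 5.44 CPM in WT and at 35.0, 9.67 and 2.55 CPM in Beclin1_KO. The summed level of 10 macrophage markers was 186 to 193 CPM in WT and 2581 to 3376 CPM in Beclin1_KO, and all 10 rose. All 4 fibroblast markers rose, from a summed 530.4 to 786 CPM to 2973 to 5205 CPM, and 4 of 5 endothelial markers fell, from 1121 to 1319 CPM to 534 to 697 CPM. Of 9 lymphocyte markers, 6 rose and 2 fell (summed level 5.58 to 9.78 CPM against 29.7 to 56.1 CPM). Of 5 nerve markers 1 fell, and of 3 mast cell markers 2 rose. No marker was at 0 in a WT library. Skeletal muscle markers summed to 547, 17538 and 1158 CPM in WT replicates 1 to 3 and to 31366, 7241 and 1236 CPM in Beclin1_KO replicates 1 to 3, and none of the 10 passed the test (0 at an unadjusted p below 0.05, and 0 by DESeq2). In whole tissue, fewer cells of a type and less RNA per cell cannot be told apart, and the part of these shifts in the results below was not tested.

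Of the 93 genes, 91 passed the filter on low counts and 38 of those (41.8%) passed the test, of which 22 (24.2%) rose and 16 (17.6%) fell. Over all genes tested, 46.6% passed, 24.8% upward and 21.8% downward, so the share of endosomal genes that passed was near the background. The changes were small beside those of other genes: the median absolute log2 fold change was 0.33 over the 91 genes and 0.59 over all genes, and 7 of the 91 endosomal genes passed with at least a 2-fold difference where 26.8% of all genes did. The endosomal genes were also more abundant, with a median level of 43.7 CPM against 19.8 CPM over all genes tested. Genes of like abundance were not compared. In 55 of the 91 (60.4%) the WT and Beclin1_KO libraries did not overlap, where all genes gave 59.7%. The log2 fold changes ran from -1.33 for Vps13a to 3.76 for Snx20, with a median of 0.11 against 0.05 for all genes. The filtered genes were Snx31, with 3 counts in Beclin1_KO replicate 2 and 0 in the other libraries, and Chmp4c, at 0.0442 to 0.338 CPM.

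**Figure D1:**
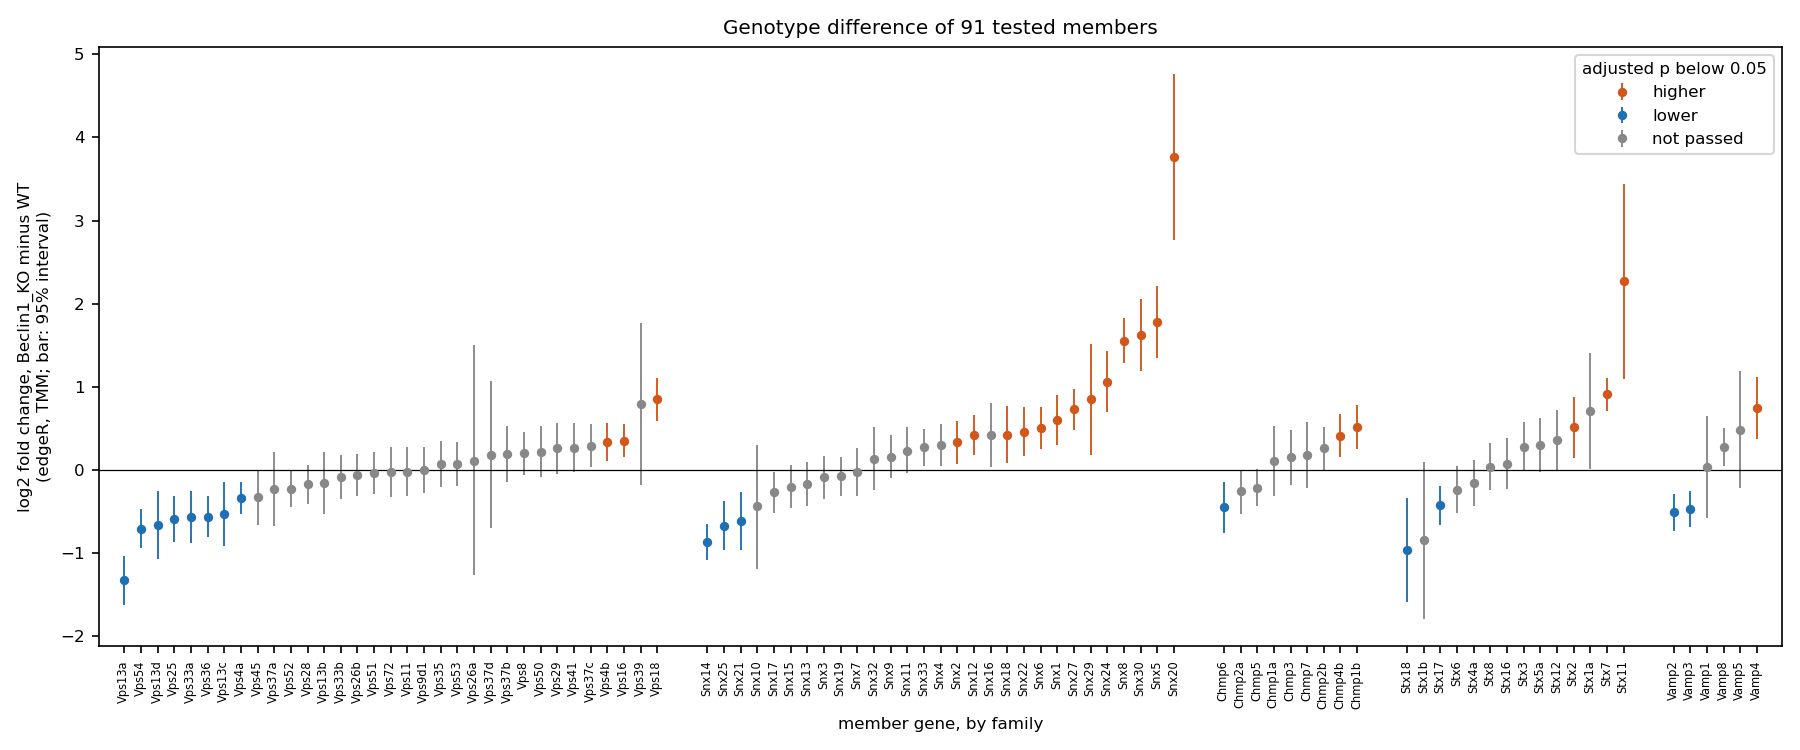
Log2 fold change (Beclin1_KO over WT, edgeR with TMM scaling) of each of the 91 tested genes, grouped by family and coloured by call, with bars for the 95% interval. The sorting nexins hold the largest difference, Snx20 at 3.76, and the Vps genes the most negative one, Vps13a at -1.33.

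The families did not share one direction. Of the 29 sorting nexins tested, 16 passed (55.2%), with 13 rises, 3 falls and a median log2 fold change of 0.30. Without WT replicate 1 or 2 the rises were 8, and without Beclin1_KO replicate 3 the falls were 5. Vps genes ran the other way, with 3 rises and 8 falls among 33 (33.3%) and a median of -0.03, but under library totals alone their median turned to 0.31 and the split to 12 rises and 1 fall. Without WT replicate 3 the Vps genes had 1 rise, and without Beclin1_KO replicate 2 they had 5 falls. Chmp genes had 2 rises and 1 fall among 9 (33.3%, median 0.15, and -0.03 without Beclin1_KO replicate 3). Without WT replicate 3 or Beclin1_KO replicate 2 they had 1 rise and 0 falls, and without WT replicate 1 or 2 they had 1 rise and 1 fall. Syntaxins had 3 rises and 2 falls among 14 (35.7%, median 0.18), and Vamp genes 1 rise and 2 falls among 6 (50%, median 0.16). Leaving out WT replicate 3, or Beclin1_KO replicate 1 or 2, left 1 falling syntaxin. The order of the families by share called differed between these fits. The differences between families were not tested. They are counts of genes, not of samples.

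**Figure D2:**
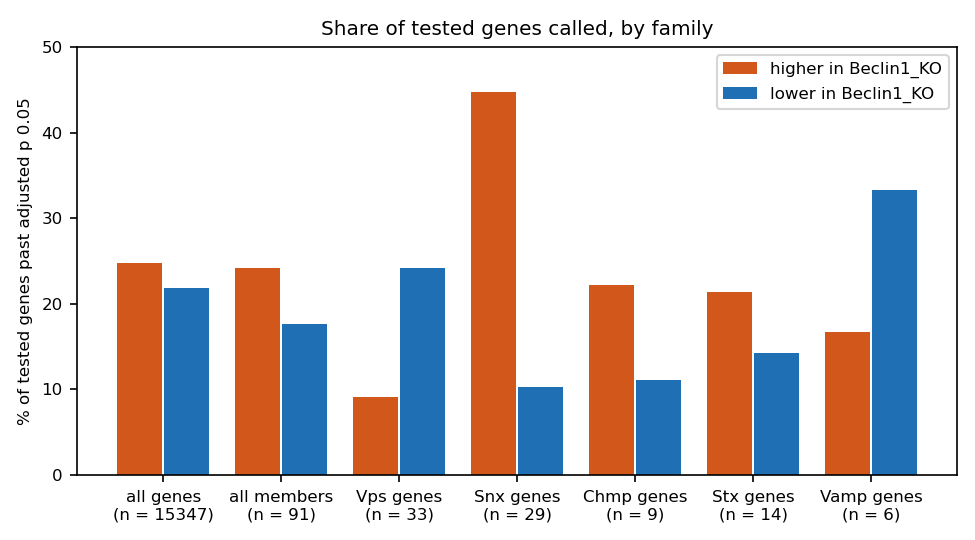
Share of tested genes, in percent, that passed the edgeR test upward (orange) or downward (blue) with TMM scaling, for all 15347 genes, the 91 endosomal genes and each family, with the number of genes under each pair of bars. The Snx bars stand at 44.8% upward and 10.3% downward and the Vps bars at 9.09% and 24.2%, a split that turned to 12 upward and 1 downward Vps genes under library totals alone.

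How the libraries were scaled decided most of the downward calls. The TMM factors were 0.828 to 0.935 in WT and 1.09 to 1.19 in Beclin1_KO, and replacing them by library totals alone raised the log2 fold changes by a median of 0.35 over all genes. Under library totals, 47 of the endosomal genes rose and 2 fell, so that 95.9% of the calls were upward against 57.9% with TMM. Over all genes, library totals called 48.7%, with 37.7% higher and 11.0% lower, and the upward share of calls moved from 53.3% to 77.4%. All 22 rises were called under both scalings. Of the 16 falls, Vps13a and Snx14 stayed called, 15 kept a negative sign, and Vps4a stood at 0.02. Calls that stood in all 14 alternative fits, leaving out each library among them, numbered 12: the falls of Vps13a and Snx14 and the rises of Vps18, Snx5, Snx8, Snx20, Snx24, Snx27, Snx30, Stx7, Stx11 and Vamp4. When WT replicate 2 and Beclin1_KO replicate 1, the libraries richest in muscle markers, were both left out, 17 of the 38 calls were kept, in a fit of 2 libraries a group that called 31.8% of all genes. Among the calls lost there were those of Vps16, Vps25, Snx21, Snx25, Chmp1b, Vamp2 and Vamp3 (edgeR adjusted p = 0.0530 to 0.0883).

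**Figure D3:**
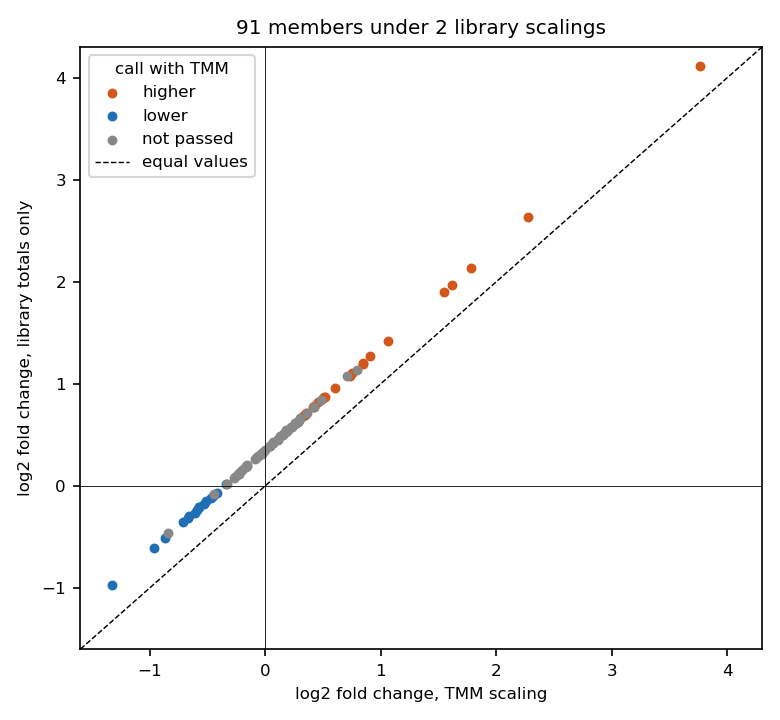
Log2 fold change of each of the 91 genes with TMM scaling (x axis) and with library totals alone (y axis), coloured by the call under TMM, with a dashed line of equal values. The points lie on a line above the dashed one, shifted by about 0.35, so genes called lower under TMM lie between -0.97 and 0.02 on the y axis.

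Among the VPS13 proteins, large bridges that move lipids between organelles at contact sites, 3 of 4 fell and Vps13b did not pass (edgeR adjusted p = 0.433). Vps13a, at chr19:16615366-16781071, was at 39.1, 46.2 and 50.8 CPM in WT replicates 1 to 3 and at 17.3, 17.6 and 19.2 CPM in Beclin1_KO replicates 1 to 3. The groups lay far apart and the 3 Beclin1_KO values were within 2 CPM of one another. The fall was 2.51-fold (log2 fold change -1.33, SE 0.13, edgeR adjusted p = 0.000361). Vps13d, whose product is needed for normal mitochondrial shape in flies and human cells, was at 95.1, 115 and 129 CPM in WT and at 65.5, 62.6 and 86.5 CPM in Beclin1_KO. The groups did not overlap, and the log2 fold change was -0.66 (SE 0.17, edgeR adjusted p = 0.0193). Vps13c fell by 0.53 on the log2 scale (edgeR adjusted p = 0.0313). The calls of Vps13c and Vps13d were lost when WT replicate 2 or 3, or Beclin1_KO replicate 1 or 2, was left out (edgeR adjusted p for Vps13d between 0.0540 and 0.0686), and under library totals.

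None of the 4 genes of the retromer core passed the edgeR test, and the count was also 0 at an unadjusted p below 0.05 and 0 with DESeq2. Vps35, the scaffold of the complex, was at 106, 105 and 128 CPM in WT and at 118, 113 and 125 CPM in Beclin1_KO. The groups overlapped, and the log2 fold change of 0.07 had a 95% interval of -0.21 to 0.35 (edgeR adjusted p = 0.644). Vps29, the small subunit that binds regulators, was at 54.0, 54.6 and 63.8 CPM in WT and at 59.3, 71.4 and 75.6 CPM in Beclin1_KO (log2 fold change 0.26, edgeR adjusted p = 0.141). Vps26b, one of a pair of alternative arrestin-like subunits, was at 56.4, 59.9 and 63.0 CPM against 63.8, 54.9 and 53.2 CPM (log2 fold change -0.06, edgeR adjusted p = 0.664). Its groups overlapped too. The other arrestin-like gene, Vps26a, was at 28.7, 73.9 and 36.0 CPM in WT and at 86.9, 29.5 and 33.7 CPM in Beclin1_KO. WT replicate 2 and Beclin1_KO replicate 1, the libraries highest in muscle markers within their groups, were also the highest in Vps26a. The interval of its difference, -1.27 to 1.5 on the log2 scale, was the widest of these 4 genes, and its sign turned without WT replicate 1 or 3 or Beclin1_KO replicate 1. Under library totals, Vps35 (0.43, edgeR adjusted p = 0.0156) and Vps29 (0.62, edgeR adjusted p = 0.00787) passed as higher, and Vps26b stood at 0.29.

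Of the 7 HOPS and CORVET subunits, which tether late and early endosomes before fusion, 2 rose, 1 fell and 4 did not pass. Vps18, a RING-domain subunit of the shared core, was at 28.4, 25.0 and 26.9 CPM in WT and at 50.3, 43.4 and 51.2 CPM in Beclin1_KO. The groups did not overlap and the rise was 1.81-fold (log2 fold change 0.85, SE 0.11, edgeR adjusted p = 0.00112). Vps16, another core subunit, was at 35.0, 35.5 and 35.7 CPM in WT and at 44.3, 44.6 and 46.8 CPM in Beclin1_KO, a rise of 1.28-fold with little spread in either group (log2 fold change 0.35, SE 0.08, edgeR adjusted p = 0.0127). Its call was lost without WT replicate 3 (edgeR adjusted p = 0.0532). Vps33a, the Sec1/Munc18-type subunit that holds SNAREs, fell with non-overlapping groups, from 81.5, 73.9 and 96.5 CPM to 61.3, 51.5 and 56.9 CPM (log2 fold change -0.57, edgeR adjusted p = 0.0117). Subunits of one tether therefore differed in direction under TMM scaling. Under library totals Vps33a no longer passed and 5 of the 7 genes rose. Vps39, a HOPS-specific subunit, was at 20.3, 40.2 and 24.3 CPM against 63.9, 26.6 and 56.7 CPM, with overlapping groups and no call (log2 fold change 0.79, edgeR adjusted p = 0.152). Its highest WT value was in WT replicate 2 and its highest Beclin1_KO value in replicate 1, again the muscle-rich libraries, while Beclin1_KO replicate 3, low in muscle markers, was nearly as high. The part of muscle RNA in these values was not tested.

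Sequence upstream of the start was compared for genes with the E-box CACGTG, the core of the element bound by TFEB-family factors that switch on lysosomal genes. RefSeq promoter windows of GRCm38.p6 (250 bases before to 50 after each start) were at hand for 65 of the 93 genes, with 81 windows in all. CACGTG, whose reverse complement is itself, so that both strands were read at once, stood in windows of 9 of the 65 genes. It stood in 5 of 17 genes that rose (Snx5, Snx8, Snx18, Vamp4 and Vps16), in 1 of 12 that fell (Vps33a) and in 3 of 36 that did not pass (Stx6, Vps26a and Vps50). Of all 32851 windows of this length in the table, 7.15% held CACGTG, and of the 15241 windows of tested genes 9.48%. Counted by gene, 11.2% of the tested genes with a window held it. The longer form TCACGTGA, which contains CACGTG, stood in Vps16, Vps26a, Vps33a and Stx6, which are 6.15% of the 65 genes, where 2.03% of the tested genes with a window held it (1.71% of their windows and 0.974% of all windows). The 250 bases before the start are shown for Snx5 and Snx8, the called members with the motif and the largest rises, and for Vps16 and Vps33a, HOPS subunits that moved oppositely with TMM scaling, with CACGTG in capitals. The windows are chr2:144270573-144270822 (minus strand) for Snx5, chr5:140389309-140389558 (minus strand) for Snx8, chr2:130424070-130424319 (plus strand) for Vps16 and chr5:123573016-123573265 (minus strand) for Vps33a, each written 5′ to 3′ on the gene's strand. The Snx5 window lies wholly inside the annotated gene, which reaches 144270902, so it and its motif precede only an internal start. The Vps33a window overlaps its gene, which reaches 123573043, and its motifs stand in the overlap.
Snx5: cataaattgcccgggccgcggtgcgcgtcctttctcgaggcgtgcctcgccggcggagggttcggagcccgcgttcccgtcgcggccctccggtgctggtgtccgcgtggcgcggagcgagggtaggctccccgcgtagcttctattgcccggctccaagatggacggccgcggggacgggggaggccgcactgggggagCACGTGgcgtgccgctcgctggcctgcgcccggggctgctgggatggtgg
Snx8: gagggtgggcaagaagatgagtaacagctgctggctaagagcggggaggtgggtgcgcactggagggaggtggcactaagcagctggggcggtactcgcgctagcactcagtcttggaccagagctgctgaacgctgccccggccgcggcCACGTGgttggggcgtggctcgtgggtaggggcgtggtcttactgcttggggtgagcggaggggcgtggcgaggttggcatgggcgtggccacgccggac
Vps16: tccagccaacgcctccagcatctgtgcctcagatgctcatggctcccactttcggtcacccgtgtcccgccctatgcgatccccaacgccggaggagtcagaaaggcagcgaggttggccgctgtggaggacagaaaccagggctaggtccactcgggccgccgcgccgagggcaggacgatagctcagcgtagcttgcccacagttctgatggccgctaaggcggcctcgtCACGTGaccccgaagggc
Vps33a: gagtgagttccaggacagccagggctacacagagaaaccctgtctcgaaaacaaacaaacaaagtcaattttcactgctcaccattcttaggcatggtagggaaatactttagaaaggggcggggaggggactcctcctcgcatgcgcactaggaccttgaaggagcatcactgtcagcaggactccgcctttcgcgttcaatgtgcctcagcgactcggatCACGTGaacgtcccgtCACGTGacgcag
Vps33a, which fell, carried the motif at 2 places and Vps16, Snx5 and Snx8, which rose, at 1 place each. A match is a stretch of letters, not a measured binding site. The differences between these motif shares were not tested, and no share was computed for all genes that rose or fell. The calls of Snx18 and Vps16 were each lost in some alternative fits. The motif was chosen with earlier results of these data known, and the part of TFEB-family factors in these changes was not tested.

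Of the 5 subunits of GARP and EARP, the tethers for transport from endosomes to the Golgi and back to the surface, 1 fell and 4 did not pass. Vps54, found in GARP and not in EARP, was at 56.1, 56.3 and 58.2 CPM in WT and at 34.1, 38.2 and 32.2 CPM in Beclin1_KO. The groups stood well apart, with a fall of 1.63-fold under TMM (log2 fold change -0.71, SE 0.10, edgeR adjusted p = 0.00162). Vps50, which takes the place of Vps54 in EARP, was at 25.0, 28.3 and 29.0 CPM against 30.4, 28.8 and 36.7 CPM and did not pass (edgeR adjusted p = 0.205). Within each library, the log2 ratio of Vps50 to Vps54 counts was -1.16, -0.99 and -1.0 in WT and -0.16, -0.41 and 0.19 in Beclin1_KO. This ratio does not depend on library scaling. It was higher in all 3 Beclin1_KO libraries than in any WT library, by 0.93 on the log2 scale (two-sided exact permutation p = 0.1, the smallest that 3 against 3 libraries can give, and 0.217 adjusted over the 13 pairs compared).

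In the ESCRT pathway, the named genes ran from ESCRT-I to the ATPase that recycles ESCRT-III. None of the 5 ESCRT-I genes within the naming rule passed (Vps28 and Vps37a to Vps37d, with Vps37c the 1 gene at an unadjusted p below 0.05 by edgeR, and 0 adjusted by DESeq2), and Vps37b and Vps37c rose under library totals. Outside the rule, Tsg101 of ESCRT-I fell under TMM (log2 fold change -0.36, edgeR adjusted p = 0.0459), and Mvb12a, Mvb12b and Ubap1 did not pass. Both ESCRT-II genes fell under TMM. Vps25 was at 94.8, 93.5 and 99.4 CPM in WT and at 57.9, 59.9 and 73.2 CPM in Beclin1_KO, with groups apart (log2 fold change -0.59, SE 0.12, edgeR adjusted p = 0.00674). Vps36, the subunit that binds ubiquitin, was at 29.8, 28.7 and 30.8 CPM against 18.6, 21.4 and 20.3 CPM (log2 fold change -0.57, SE 0.10, edgeR adjusted p = 0.00434). Neither passed under library totals, where the median of both was -0.22. The remaining ESCRT-II gene, Snf8, lies outside the naming rule and did not pass (log2 fold change -0.29, edgeR adjusted p = 0.0692). Vps25, at chr11:101252326-101259551, ends 28706 bases from Becn1, at chr11:101288258-101302286, the gene deleted here. A link between this position and the fall of Vps25 was not tested.

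Of the 9 tested Chmp genes, which encode ESCRT-III filament subunits, 2 rose, 1 fell and 6 did not pass. Chmp4b, the main filament-forming subunit, was at 169, 174 and 178 CPM in WT and at 214, 229 and 249 CPM in Beclin1_KO. The lowest Beclin1_KO value was above the highest WT value, and the rise was 1.33-fold (log2 fold change 0.41, SE 0.11, edgeR adjusted p = 0.0205). Chmp1b, a late-acting subunit, rose from 38.2, 37.2 and 43.6 CPM to 58.9, 51.1 and 60.4 CPM, again without overlap (log2 fold change 0.52, SE 0.11, edgeR adjusted p = 0.00945). Chmp6, which links ESCRT-II to ESCRT-III, fell under TMM from 33.8, 32.0 and 39.1 CPM to 28.8, 24.4 and 23.4 CPM (log2 fold change -0.45, SE 0.13, edgeR adjusted p = 0.0271). These groups lay closer together, with 28.8 CPM next to 32.0 CPM. Chmp2a, which caps the filament and recruits VPS4, was at 111, 116 and 118 CPM against 85.1, 96.4 and 106 CPM and did not pass (log2 fold change -0.26, edgeR adjusted p = 0.0971), though it did without Beclin1_KO replicate 3 (-0.34, edgeR adjusted p = 0.0396). Per length, Chmp2a and Chmp4b were the most abundant Chmp genes in WT, at 108 ± 3.29 and 93.9 ± 3.05 FPKM (SD, n = 3), and in Beclin1_KO Chmp4b stood at 159 ± 14.2 and Chmp2a at 114 ± 14.1 FPKM. Chmp2a was the higher of the pair in all 3 WT libraries and Chmp4b in all 3 Beclin1_KO libraries. The call of Chmp4b was lost without any WT library or Beclin1_KO replicate 2 (edgeR adjusted p = 0.0542 to 0.0817), and that of Chmp6 without WT replicate 3 or Beclin1_KO replicate 2 or 3, and under library totals. The call of Chmp1b was lost only when both muscle-rich libraries were left out (edgeR adjusted p = 0.0883).

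The VPS4 ATPase genes moved in opposite directions under TMM. Vps4a was at 74.1, 71.3 and 73.2 CPM in WT and at 59.3, 57.1 and 56.5 CPM in Beclin1_KO (log2 fold change -0.34, SE 0.08, edgeR adjusted p = 0.0142), and at 0.02 under library totals. Vps4b was at 57.4, 56.6 and 58.5 CPM against 65.8, 74.9 and 77.3 CPM (log2 fold change 0.34, SE 0.10, edgeR adjusted p = 0.0266). Neither gene's groups overlapped, and in both the WT values were within 3 CPM of one another. The log2 ratio of Vps4b to Vps4a counts was -0.37, -0.33 and -0.32 in WT and 0.15, 0.39 and 0.45 in Beclin1_KO. It was negative in all 3 WT libraries and positive in all 3 Beclin1_KO libraries. The shift was 0.67 on the log2 scale (two-sided exact permutation p = 0.1, the smallest possible, adjusted p = 0.217). The call of Vps4b was lost without any library but Beclin1_KO replicate 1 (edgeR adjusted p = 0.0555 to 0.0915), and that of Vps4a without Beclin1_KO replicate 2 (edgeR adjusted p = 0.0526).

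Sorting nexins held 5 of the 7 endosomal genes that passed with at least a 2-fold difference. Of the 12 sorting nexins with a BAR domain, which senses and bends membranes into tubules, 7 rose and 0 fell. With 24.8% of all genes rising, this subgroup's share was 58.3%, and its median log2 fold change was 0.38. Of these rises, only those of Snx5, Snx8 and Snx30 stood in all 14 alternative fits. Snx1, Snx2, Snx5 and Snx6, which pair up to coat retromer tubules, rose. Snx5, at chr2:144250123-144270902, was at 68.2, 62.1 and 60.6 CPM in WT and at 259.5, 229 and 166 CPM in Beclin1_KO. Even its lowest Beclin1_KO library lay far above every WT library, a rise of 3.43-fold (log2 fold change 1.78, SE 0.18, edgeR adjusted p = 0.000461). Its close relative Snx6 rose less, from 40.2, 37.1 and 40.7 CPM to 59.1, 58.9 and 49.4 CPM (log2 fold change 0.50, edgeR adjusted p = 0.00886). The log2 ratio of Snx6 to Snx5 counts was -0.76, -0.74 and -0.57 in WT and -2.13, -1.96 and -1.75 in Beclin1_KO, a shift of -1.25 with no overlap (two-sided exact permutation p = 0.1, the smallest possible, adjusted p = 0.217). Their dimer partners moved by less. Snx1 was at 58.8, 52.1 and 64.7 CPM against 84.0, 100.1 and 82.2 CPM (log2 fold change 0.60, SE 0.13, edgeR adjusted p = 0.00859), without overlap. Snx2 rose by 0.33 on the log2 scale (edgeR adjusted p = 0.0444), a call that was lost without any library but Beclin1_KO replicate 1 and under RLE scaling. The calls of Snx1 and Snx6 were lost only when both muscle-rich libraries were left out (edgeR adjusted p = 0.0533 and 0.0879).

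Among the BAR-domain sorting nexins, Snx30 and Snx8 came next to Snx5 in fold. Snx8, tied to endosome-to-Golgi transport, was at 24.4, 20.6 and 21.1 CPM in WT and at 70.8, 61.8 and 61.3 CPM in Beclin1_KO. The groups were tight and far apart, a rise of 2.94-fold (log2 fold change 1.55, SE 0.12) with the smallest edgeR adjusted p of the 91 genes, 0.000160. Snx30 was at 6.76, 8.35 and 6.44 CPM against 26.9, 19.3 and 20.3 CPM (3.08-fold, log2 fold change 1.62, SE 0.18, edgeR adjusted p = 0.000686), also without overlap. Snx18, which acts with dynamin at the plasma membrane and in autophagosome formation, was close to the threshold (log2 fold change 0.42, edgeR adjusted p = 0.0490). Its call was lost under RLE scaling and without any library but Beclin1_KO replicate 2. Snx4, Snx7, Snx9, Snx32 and Snx33 did not pass, with Snx4 and Snx33 at edgeR adjusted p = 0.0505 and 0.0523.

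Snx20 had the largest fold of the group, from a level near the filter in WT. Snx20, at chr8:88626561-88636133, encodes a PX protein that binds the leukocyte adhesion molecule PSGL-1. It was at 0.676, 1.67 and 0.689 CPM in WT and at 16.6, 13.6 and 11.2 CPM in Beclin1_KO. All Beclin1_KO libraries were many times above all WT libraries, with a log2 fold change of 3.76 (SE 0.42, 13.5-fold, edgeR adjusted p = 0.000650). Summed macrophage markers moved the same way, from 186 to 193 CPM to 2581 to 3376 CPM, and summed lymphocyte markers from 5.58 to 9.78 CPM to 29.7 to 56.1 CPM. Their part in the rise of Snx20 was not tested. Per length, Snx20 stood at 0.614 FPKM in WT and 10.6 FPKM in Beclin1_KO. Snx3, the retromer adaptor for WNT carrier recycling, was the most abundant sorting nexin per length in WT, at 109 ± 8.13 FPKM, and in counts it was at 177, 161 and 179 CPM against 159.6, 173 and 152 CPM. Its groups overlapped and it did not pass (log2 fold change -0.09, 95% interval -0.35 to 0.17, edgeR adjusted p = 0.520), and its sign turned to 0.26 under library totals.

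Of the 4 sorting nexins with a PXA domain, most of which also carry an RGS domain, 2 fell under TMM, 0 rose and Snx13 and Snx19 did not pass. Snx14, at chr9:88376755-88438929, whose product ties the endoplasmic reticulum to growing lipid droplets, was at 55.7, 54.8 and 59.1 CPM in WT and at 30.3, 29.5 and 33.1 CPM in Beclin1_KO. Both groups were tight, and the fall was 1.83-fold (log2 fold change -0.87, SE 0.09, edgeR adjusted p = 0.000559). Snx25 was at 22.4, 22.0 and 20.9 CPM against 13.1, 12.5 and 15.6 CPM (log2 fold change -0.67, SE 0.12, edgeR adjusted p = 0.00527), a call lost under library totals. Snx21, the close relative of Snx20, differed from it in direction. It was at 48.6, 36.8 and 35.6 CPM in WT and at 25.8, 25.0 and 28.3 CPM in Beclin1_KO, without overlap (log2 fold change -0.61, SE 0.15, edgeR adjusted p = 0.0132). Its call was lost without Beclin1_KO replicate 2 (edgeR adjusted p = 0.0506) and under library totals. Among the other sorting nexins, Snx27, which links retromer to cargo through a PDZ domain, rose by 0.73 (edgeR adjusted p = 0.00182) and Snx24 by 1.06 (edgeR adjusted p = 0.00180) on the log2 scale. Snx12, Snx22 and Snx29 rose by 0.42, 0.46 and 0.85, and each of these calls was lost without at least 3 of the single libraries. After Snx3, Snx10 was the most abundant sorting nexin per length in WT, at 54.0 FPKM. In Beclin1_KO it stood at 51.1 FPKM, below Snx5 at 97.5 FPKM. Snx10 spread widely, at 121, 149.9 and 197 CPM against 81.0, 95.5 and 167 CPM, with no call (edgeR adjusted p = 0.285).

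**Figure D4:**
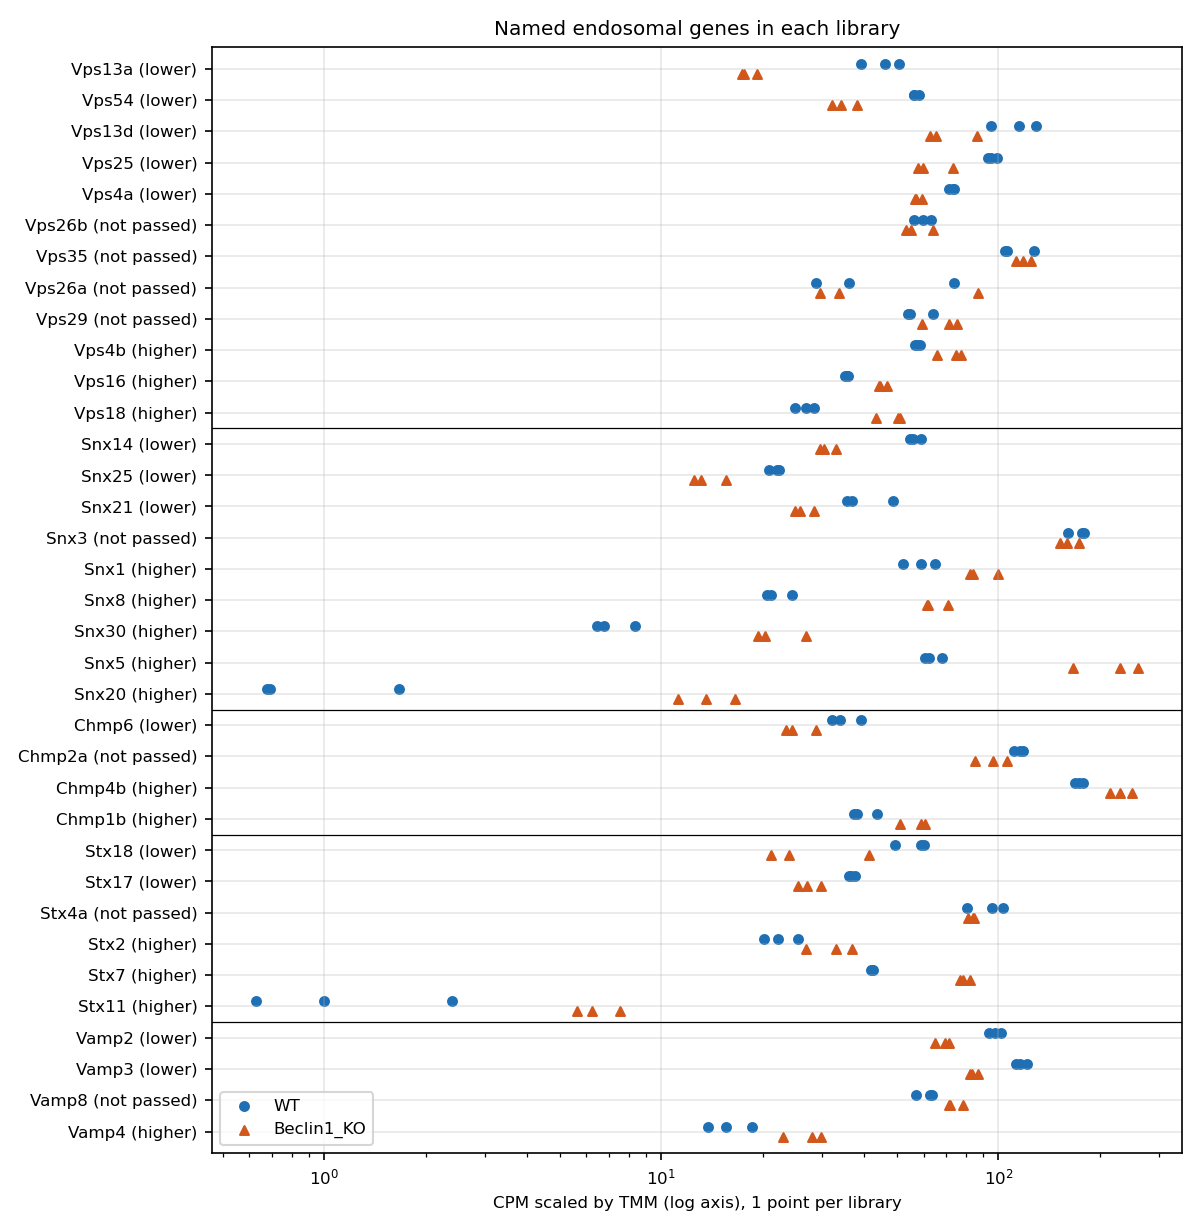
CPM on a log axis of 35 genes, each marked with its call under TMM scaling, in the 3 WT (circles) and 3 Beclin1_KO (triangles) libraries, 1 point per library, with lines between families. Snx20, Stx11, Snx5, Snx30 and Snx8 show the widest gaps between groups among the rises and Vps13a among the falls.

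Among the syntaxins, the target-membrane SNAREs, 3 rose, 2 fell and 9 did not pass. Stx7, the late endosome and lysosome syntaxin, at chr10:24149289-24188961, was at 42.2, 42.6 and 41.8 CPM in WT and at 78.8, 82.4 and 76.8 CPM in Beclin1_KO. The WT values differed by less than 1 CPM and the groups lay far apart, with a rise of 1.88-fold (log2 fold change 0.91, SE 0.08, edgeR adjusted p = 0.000307). Its early endosome relative Stx12 was at 95.2, 85.0 and 95 CPM against 101, 109 and 143 CPM and did not pass (edgeR adjusted p = 0.0965). The log2 ratio of Stx7 to Stx12 was -1.17, -1.0 and -1.18 in WT and -0.36, -0.40 and -0.89 in Beclin1_KO, higher in the latter by 0.57 without overlap (two-sided exact permutation p = 0.1, the smallest possible, adjusted p = 0.217). Stx11, a syntaxin of immune cells needed for cytotoxic granule release, was at 0.628, 2.39 and 0.997 CPM in WT and at 5.63, 7.55 and 6.21 CPM in Beclin1_KO. WT replicate 2 was the highest WT library and still below every Beclin1_KO library (log2 fold change 2.27, SE 0.49, edgeR adjusted p = 0.00952). Without WT replicate 2 the log2 fold change was 2.97, and without that library and Beclin1_KO replicate 1 it was 3.08. As with Snx20, the immune cell markers listed above moved with it, and their part was not tested.

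Both syntaxins of the endoplasmic reticulum and autophagosome fell under TMM. Stx17, the autophagosomal SNARE for fusion with lysosomes, was at 37.6, 36.1 and 36.5 CPM in WT and at 29.7, 25.4 and 27.0 CPM in Beclin1_KO. The groups were tight and apart, with a fall of 1.34-fold (log2 fold change -0.42, SE 0.10, edgeR adjusted p = 0.0126) that was no longer called under library totals. Stx18, the endoplasmic reticulum SNARE for retrograde transport from the Golgi, was at 60.1, 49.5 and 58.9 CPM against 21.1, 23.9 and 41.3 CPM. Beclin1_KO replicate 3 lay closer to WT than the other 2 (log2 fold change -0.96, SE 0.26, edgeR adjusted p = 0.0224). Leaving out WT replicate 1 or 3, or Beclin1_KO replicate 1 or 2, ended its call (edgeR adjusted p = 0.0505 to 0.0787), as did library totals. Stx4a, the plasma membrane syntaxin for GLUT4 vesicles and the most abundant syntaxin per length in WT (59.4 ± 4.40 FPKM), was at 80.5, 96.1 and 103 CPM against 84.2, 84.9 and 81.1 CPM. Its groups overlapped and it did not pass (log2 fold change -0.16, 95% interval -0.44 to 0.12, edgeR adjusted p = 0.300), and it stood at 0.20 under library totals. Stx2, another plasma membrane syntaxin, was at 22.2, 20.2 and 25.5 CPM against 36.8, 33.0 and 26.8 CPM (log2 fold change 0.51, SE 0.15, edgeR adjusted p = 0.0327), and leaving out replicate 1 or 2 of either group ended its call.

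Among the VAMPs, the vesicle-side SNAREs, the GLUT4-vesicle genes Vamp2 and Vamp3 fell side by side under TMM. Vamp2 was at 94.0, 102 and 97.7 CPM in WT and at 64.9, 69.4 and 71.4 CPM in Beclin1_KO (log2 fold change -0.51, SE 0.09, edgeR adjusted p = 0.00436). Vamp3 was at 116, 113 and 122 CPM against 82.3, 83.4 and 87.3 CPM (log2 fold change -0.47, SE 0.09, edgeR adjusted p = 0.00600). Neither gene's groups overlapped, and neither passed under library totals. The log2 ratio of Vamp3 to Vamp2 was 0.26 ± 0.10 in WT and 0.30 ± 0.04 in Beclin1_KO (SD, n = 3 each), with overlapping groups (two-sided exact permutation p = 0.800). Vamp4, which serves the trans-Golgi network and endosomes and was the least abundant Vamp gene per length in WT (2.98 ± 0.383 FPKM), was at 13.8, 18.6 and 15.6 CPM against 28.0, 29.7 and 22.9 CPM. It rose 1.68-fold without overlap (log2 fold change 0.75, SE 0.16, edgeR adjusted p = 0.00845). Vamp8, the late endosome and autophagosome SNARE and the most abundant Vamp gene per length (67.5 ± 5.72 FPKM in WT), was at 63.5, 56.9 and 62.8 CPM against 78.6, 72.0 and 71.3 CPM. Its groups did not overlap and it fell just short of the threshold with edgeR (log2 fold change 0.28, adjusted p = 0.0505), passing with DESeq2 (adjusted p = 0.0486) and under library totals (0.63, edgeR adjusted p = 0.00330). Vamp1 and Vamp5 did not pass, and Vamp7 was not analysed here.

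**Figure D5:**
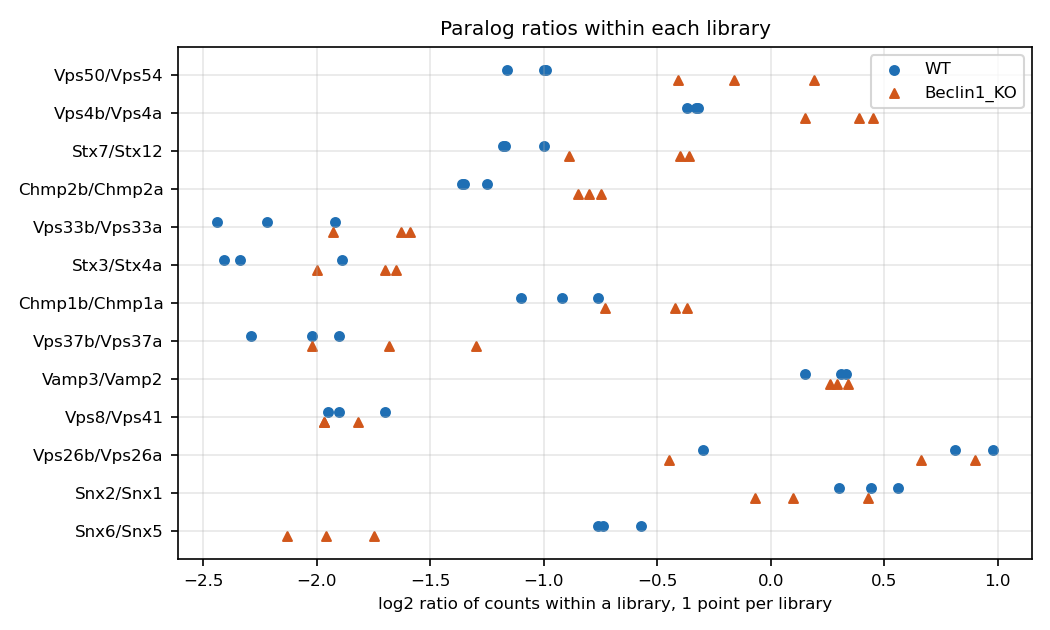
Within-library log2 ratio of counts for 13 pairs of related genes, 1 point per library, for WT and Beclin1_KO. In 6 pairs (Vps4b/Vps4a, Vps50/Vps54, Snx6/Snx5, Chmp2b/Chmp2a, Chmp1b/Chmp1a and Stx7/Stx12) the groups do not overlap, and the furthest apart is Snx6/Snx5 with a shift of -1.25. Of all single genes tested, 59.7% do not overlap in CPM, and no share was computed for other pairs.

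Ratios within a library were compared for 13 pairs of related genes, since scaling cannot move them. In 6 pairs the WT and Beclin1_KO libraries did not overlap, each with the smallest p that the design allows (two-sided exact permutation p = 0.1, adjusted p = 0.217), so none could pass 0.05. Of all single genes tested, 59.7% did not overlap in CPM, so a lack of overlap was common in these libraries. No such share was computed for other pairs of genes. Besides the 4 described above, the Chmp2b to Chmp2a log2 ratio was -1.32 ± 0.06 in WT and -0.80 ± 0.05 in Beclin1_KO. The Chmp1b to Chmp1a log2 ratio was -0.93 ± 0.17 in WT and -0.51 ± 0.19 in Beclin1_KO (SD, n = 3 each). The other 7 pairs overlapped, with shifts between -0.28 for Snx2/Snx1 and 0.48 for Vps33b/Vps33a.

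Partner genes outside the naming rule were counted from lists of the same complexes. Over all genes tested, 46.6% passed, 24.8% upward and 21.8% downward. The share that passed was 21.4% of the ESCRT list and 57.1% of the retromer, WASH and Commander list. It was 25.0% of the tether list, 37.0% of the SNARE list and 42.9% of the VPS34 list. Differences between these shares and the background were not tested. Of 14 other ESCRT genes, 2 rose and 1 fell. These were Ptpn23 (0.54, edgeR adjusted p = 0.0331) and Hgs, the ESCRT-0 ubiquitin receptor (0.37, edgeR adjusted p = 0.0183), and in the other direction Tsg101 of ESCRT-I (-0.36, edgeR adjusted p = 0.0459). Of 21 retromer, WASH and Commander partners, 7 rose and 5 fell, among them Washc4, listed as A230046K03Rik (0.92, edgeR adjusted p = 0.00156), and Commd3 (-0.68, edgeR adjusted p = 0.00226). Vps26c, listed under its older symbol Dscr3 and so outside the rule, rose by 0.55 (edgeR adjusted p = 0.00426), while Vps35l, listed as 9030624J02Rik, did not pass (0.31, edgeR adjusted p = 0.0509). Of 8 tether partners, Plekhm1, a HOPS-binding adaptor, rose (0.90, edgeR adjusted p = 0.00505) and Mon1a, part of the Rab7 activator, fell (-0.68, edgeR adjusted p = 0.00321). Of 27 other SNAREs and SNARE regulators tested, 5 rose and 5 fell, and those with the smallest p included Snap23 (0.69, edgeR adjusted p = 0.00145), a partner of plasma membrane syntaxins, and Sec22a (-0.80, edgeR adjusted p = 0.00208). In the VPS34 complex list, Uvrag rose (0.64, edgeR adjusted p = 0.00869), as did the regulatory subunit Pik3r4 (0.35, edgeR adjusted p = 0.0405), and the catalytic subunit Pik3c3 did not pass (0.09, edgeR adjusted p = 0.484).

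Per length, levels within families spanned more than the changes between genotypes. In WT the Vps genes ran from 0.781 FPKM for Vps37d to 76.7 ± 3.51 FPKM for Vps25, with Vps28 next at 60.3 FPKM, and the syntaxins from 0.499 FPKM for Stx11 to the 59.4 FPKM of Stx4a. FPKM are scaled to depth without TMM, so their group differences follow the library-total scale: Vps4a was at 30.5 FPKM in WT and 30.8 FPKM in Beclin1_KO. In the annotation, 17 of the 93 genes share bases with another protein-coding gene, among them Vps13d with Dhrs3, Vps54 with Ugp2, Vps16 with Pced1a, Vps36 with Thsd1, Snx21 with Acot8, Chmp1b with Gnal and Stx18 with Nsg1. No source used here states whether counting respected the strand, so counts of these genes are less certain.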

How the data were processed

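RNA of 6 samples was sequenced from TruSeq Stranded mRNA libraries, per the labels' protocols. Per the submitters' processing notes, the tools were HISAT2 2.1.0, StringTie 1.3.4d, Trimmomatic, bcl2fastq 2.20.0 and DESeq2, with the build mm10. The sources used here give neither the gene annotation nor how multiply mapped reads were handled. Per the file headers, the authors deposited whole-number read counts per gene and FPKM values, the latter scaled to length and depth. A further 6 columns of per-sample values were not used.

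The counts entered edgeR 4.0.16 (R 4.3.3, filterByExpr, TMM, robust quasi-likelihood fit, genotype as the only term). The filter removed 3160 of 18507 genes, and p-values were adjusted over the 15347 left by the Benjamini-Hochberg method. The biological coefficient of variation was 33.2%. Groups came from the sample titles, and replicates are biological per the design text. Same-numbered samples did not deviate together, so no pairing was used. Ratios of related genes used counts plus 0.5 and a two-sided exact permutation test over the 6 libraries. Genes named with values were the 4 highest and 4 lowest called members per family with a mean of at least 1 CPM, a list of further genes whether or not they passed, the partner genes with the smallest p per list, and the ends of the FPKM order. Snx4, Snx10, Snx33, Vps39, Vps50, Stx12, Vps33a, Vps36 and the other called members were added after their values were seen. The members, the lists and the motif were chosen with earlier results of these data known. Positions and promoter sequences are RefSeq's for GRCm38.p6 (mm10), joined on Entrez number for all 93 genes.

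Alternatives were RLE scaling, library totals alone, DESeq2 1.42.0, no low-count filter, limma-trend (limma 3.58.1) on log2 FPKM with a pseudocount of 1 or 0.1 where 3 samples reached 1 FPKM, a replicate block, each library left out in turn, and, chosen for the muscle signal, leaving out WT replicate 2 and Beclin1_KO replicate 1 together. The scripts were tested on simulated data.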

Additional observations from a re-analysis of the deposited data

How the results depend on the processing

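Library totals kept 24 of the 38 calls and added 25, and leaving out the muscle-rich libraries kept 17 and added 0. With library totals alone, 5787 genes of the whole table rose and 1694 fell, and with limma-trend on log2 FPKM with a pseudocount of 1 or 0.1, 1700 and 1699 fell. Each of these 3 fits called 47 endosomal genes higher and 2 lower and 6 Chmp genes in either direction, and library totals called 8 Stx genes. In the order of library totals, pseudocount 1 and pseudocount 0.1, the log2 fold changes of the genes described with values reversed for Vps4a (0.02, 0.01 and 0.01), Vps26b (0.29, 0.26 and 0.28), Snx3 (0.26, 0.26 and 0.26), Chmp2a (0.09, 0.08 and 0.08) and Stx4a (0.20, 0.19 and 0.20), and Becn1 was at -0.39 and no longer passed under library totals. Over all 91 genes, 21 turned from negative to positive under library totals, 1 of them (Vps4a) called with TMM. These scalings leave out the TMM factors.

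Leaving out each library in turn gave 14 to 18 endosomal genes higher and 10 to 19 lower, where the share of all genes called was 35.4% to 46.3% (19.0% to 24.3% higher and 16.1% to 22.0% lower). The lowest counts came without WT replicate 1 or 2 (14 higher) and without Beclin1_KO replicate 2 (10 lower). Over the same fits, 7 to 11 Vps, 11 to 15 Snx, 1 to 3 Chmp and 3 to 5 Stx genes passed, with 7 Vps genes without WT replicate 3. Without both libraries highest in muscle markers, 10 endosomal genes rose and 7 fell, with 5 Vps, 7 Snx, 1 Chmp, 3 Stx and 1 Vamp genes passing and 2054 genes of the table falling. That fit holds 2 libraries a group. Over the fits without a single library, Vps35 ran from 0.00 (without WT replicate 1) to 0.15 and Vps26a from -0.55 (without Beclin1_KO replicate 1) to 0.62, with -0.17 and -0.06 without WT replicate 1 and 3 and -0.03 without the muscle-rich libraries. The shift of Vps26b/Vps26a ran from -0.52 to 0.28, with 0.12 and 0.03 without WT replicate 1 and 3. That of Vps8/Vps41 ran from -0.12 to 0.00 and that of Vamp3/Vamp2 from -0.02 to 0.07, both reversing without WT replicate 2. Apart from the construction of these fits, the cause was not tested.

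With the replicate number as a block, 19 endosomal genes rose and 16 fell, and 34 of the 38 calls were kept. The numbers do not pair the samples: deviations of same-numbered samples correlated at -0.4, 0.023 and 0.4. DESeq2 called 24 endosomal genes higher and 16 lower, and RLE scaling 20 and 16. Over all genes these fits called 41.7% (block), 43.3% (DESeq2) and 46.6% (RLE). Snx31 and Chmp4c, removed by the low-count filter, entered the DESeq2 fit and the fit without a filter.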
